A study of Bos taurus with 2 samples.

Results

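COL1A1, COL1A2 and COL3A1, the genes of the 3 chains that make up type I and type III collagen, were followed in bovine longissimus muscle between fetal life and adulthood. The genes were taken by their Ensembl identifiers, ENSBTAG00000013103 for COL1A1, ENSBTAG00000013472 for COL1A2 and ENSBTAG00000021466 for COL3A1, and an identifier was kept only if its listed gene model was at least 4000 nt long. All 3 passed, with models of 4735, 4624 and 4509 nt, out of 16174 genes with a read in either library. The deposited tables hold no gene names. The pairing of these identifiers with symbols came with the selection, and the model length was the check made on it.

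Messenger RNA had been sequenced from Qinchuan beef cattle at 2 stages from longissimus muscle, whose tissue label reads thoracis. The Emb135 library came from animals at 135 days after insemination, labelled as embryos and called fetal here, and the 30M library from adults at 30 months after birth. No treatment, mutant or transgene is given in the labels for either stage. Each library was made from the pooled RNA of 3 animals, so there is 1 library per stage and no replicate. The Emb135 library held 17736812 uniquely assigned reads, and the 30M library held 19970007.

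Fibrillar collagens are the rope-like proteins of connective tissue. Their chains wind into triple helices inside the cell, are trimmed after secretion and pack into fibrils that are then crosslinked. Type I collagen, the stiff main fibre of tendon, bone and muscle connective tissue, is built mostly from a pair of α1 chains encoded by COL1A1 and a single α2 chain encoded by COL1A2. Type III collagen, a thinner fibre often laid down beside type I in soft and growing tissue, is a trimer of identical chains encoded by COL3A1. In muscle these fibres form the sheaths around fibres, bundles and the whole muscle, and fibroblasts are their main producers. Collagen protein is long lived, so the amount of its mRNA at a given age is not a measure of the collagen present.

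The collagen genes were among the most abundant transcripts of fetal muscle and were 6- to 15-fold lower in the adult library on the deposited scale. Together they held 902852 reads in Emb135, which is 5.09% of the library (exact 95% binomial interval 5.08 to 5.10%) or 1 read in every 19.6. In 30M they held 95660 reads, 0.479% of the library (0.476 to 0.482%) or 1 read in every 209. The summed share was 10.6-fold larger in Emb135 (counting interval 10.6 to 10.7). These intervals cover counting error of independent reads only. They hold no variation between animals or library preparations, and no p-value can be given for a difference between stages. In bulk muscle, fewer collagen-producing cells and less collagen mRNA per cell cannot be told apart. A share also falls where other transcripts take more of the library, and that part was not tested. The 10 most abundant genes of each library held 12.4% of reads in Emb135 and 25.9% in 30M.

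COL1A1 had 439915 reads in Emb135 and 32916 in 30M. On the RPKM scale, which corrects reads for model length and library depth, its level was 5238 in Emb135 and 348.1 in 30M. Its share of all reads was 2.48% in Emb135 (2.47 to 2.49%) and 0.165% in 30M (0.163 to 0.167%). The adult RPKM was 6.65% of the fetal one, a 15.0-fold difference with a counting interval of 14.9 to 15.2. This was the largest difference of the 3 genes.

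COL1A2, the partner chain of COL1A1 in type I collagen, had 255698 reads in Emb135 and 24092 in 30M. Its RPKM was 3118 in Emb135 and 260.9 in 30M, and its share of reads was 1.44% and 0.121%. The adult RPKM was 8.37% of the fetal one, an 11.9-fold difference (counting interval 11.8 to 12.1). The partner chains of type I collagen were thus both more than 10-fold lower in the adult library on this scale, but not by the same factor.

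COL3A1 had 207239 reads in Emb135 and 38652 in 30M. Its RPKM was 2591 in Emb135 and 429.3 in 30M, and its share of reads was 1.17% and 0.194%. The adult RPKM was 16.6% of the fetal one, a 6.04-fold difference (counting interval 5.97 to 6.10). COL3A1 was the lowest of the 3 genes in the fetal library and the highest in the adult one.

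**Figure D1:**
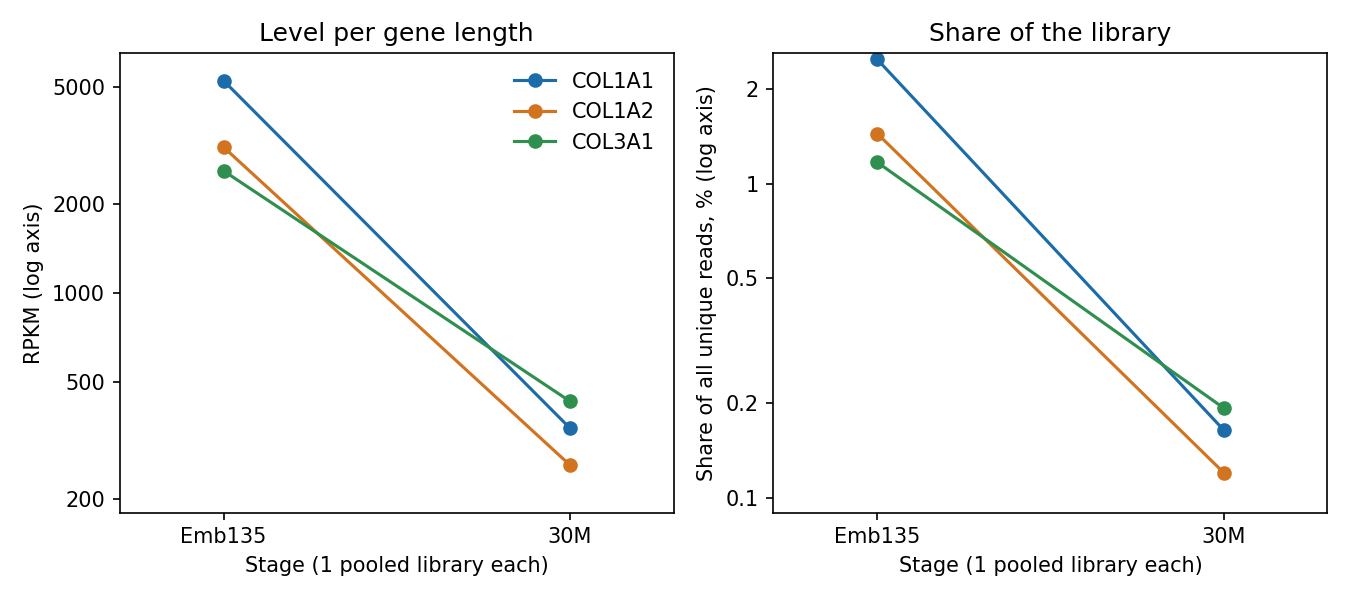
RPKM (left) and share of all unique reads in percent (right) of COL1A1, COL1A2 and COL3A1 at each stage, both on log axes; each point is 1 pooled library, counting intervals are smaller than the points, and lines join the stages of a gene. COL1A1 runs from 5238 to 348.1 RPKM and COL3A1 from 2591 to 429.3, so their lines cross.

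By reads, COL1A1, COL1A2 and COL3A1 were the genes of rank 2, 3 and 4 among the 15522 genes detected in Emb135. The gene of rank 1 had 446730 reads, 2.52% of the library (2.51 to 2.53%), and its interval did not overlap that of COL1A1. The gene of rank 5 had 199829 reads, 1.13%, which was also outside the interval of COL3A1. The 3 collagen genes made up 40.9% of the reads of the 10 most abundant fetal genes. In 30M none of them was among the first 10. COL3A1 was there at rank 54, COL1A1 at rank 57 and COL1A2 at rank 83 of 14853 detected genes. By reads, each was thus still among the first 100 genes of the adult library, which does not hold by RPKM. The adult share of COL1A2 could not be separated by counting error from those of the genes of rank 82 and 84, at 0.121% and 0.120%.

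Read ranks favour long transcripts, and per unit of length the collagen genes stood lower. By RPKM in Emb135, COL1A1 was at rank 20, COL1A2 at rank 52 and COL3A1 at rank 67. In 30M the ranks by RPKM were 217 for COL1A1, 279 for COL1A2 and 188 for COL3A1. Among the 1661 gene models of at least 4000 nt, COL1A1, COL1A2 and COL3A1 had the 3 highest RPKM values in Emb135. The next such model had an RPKM of 748.3. In the adult library the same length class was led by a gene at an RPKM of 7299, with COL3A1 at rank 6, COL1A1 at rank 7 and COL1A2 at rank 11.

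The place of the collagens among long transcripts changed more than the weight of long transcripts as a whole. Models of at least 4000 nt took 18.7% of fetal and 18.5% of adult reads. COL1A1, COL1A2 and COL3A1 made up 27.2% of these reads in the fetal library and 2.58% in the adult one. The other 1658 models of this length held 13.6% of all reads in Emb135 and 18.1% in 30M.

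With 1 library per stage, a gene was called by size: the difference in log2(RPKM + 0.5) had to amount to 2-fold or more, the RPKM at the higher stage to 1 or more, and the counting interval had to leave out equality. By this rule 4167 of 12763 genes were lower in 30M, a background of 32.6%, and 1665 were higher, 13.0%. When 30M was scaled so that the median ratio of genes present at both stages was 1, 2714 were lower and 2581 higher. A median ratio of 1 brings these counts near each other by construction. They do not show where the excess of lower genes comes from. With TPM, which brings the RPKM values of each library to the same sum, 4016 were lower and 1922 higher. COL1A1, COL1A2 and COL3A1 were all called lower. At a 4-fold threshold all 3 were still called lower, against a background of 1319 genes or 10.3%. The log2 ratio of 30M over Emb135 was -3.91 for COL1A1 (counting interval -3.93 to -3.90), -3.58 for COL1A2 (-3.60 to -3.56) and -2.59 for COL3A1 (-2.61 to -2.58). Their median was -3.58, against a median of -0.53 over all 12763 genes.

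The collagen genes lay far towards the low end of all ratios, although many genes lay beyond them. For COL1A1, 193 genes including itself had a log2 ratio as low or lower, which is 1.51% of those tested. For COL1A2 the number was 252, or 1.97%, and for COL3A1 it was 682, or 5.34%. These positions depend on the pseudocount, which holds back the ratios of weakly expressed genes: with 0.1 in place of 0.5 they were 3.42%, 4.43% and 8.61%, and with 1 they were 0.972%, 1.34% and 3.65%. Within the 1401 tested models of at least 4000 nt, the shares were 1.93% for COL1A1, 2.21% for COL1A2 and 5.28% for COL3A1. The fall of abundant fetal genes was common: of 186 genes whose fetal RPKM was 500 or more, 133 or 71.5% were called lower, with a median log2 ratio of -1.73, and genes picked for a high fetal value tend to be lower at the other stage. In that group 16 genes including COL1A1 were as low as COL1A1, 18 were as low as COL1A2 and 32 were as low as COL3A1. Of the 67 genes with an RPKM at or above that of COL3A1 in Emb135, the collagens were the 3 with a model of at least 4000 nt.

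**Figure D2:**
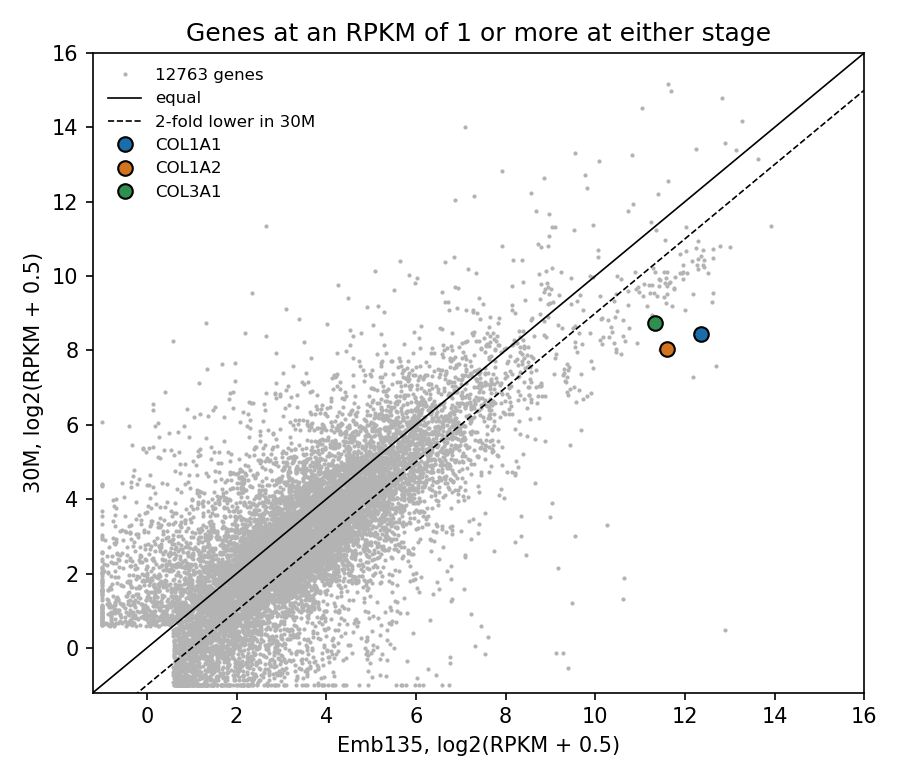
log2(RPKM + 0.5) in Emb135 (horizontal) against 30M (vertical) for the 12763 genes that reached an RPKM of 1 at a stage (grey) and the collagen genes (coloured); the solid line marks equality and the dashed line a 2-fold lower level in 30M. COL1A1, COL1A2 and COL3A1 lie at log2 ratios of -3.91, -3.58 and -2.59, below the dashed line at the right-hand, high-expression end.

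In terms of the make-up of the library, COL1A1 gave up 2.32 percentage points of reads between the stages, COL1A2 1.32 points and COL3A1 0.975 points. These were the second, the third and the fourth largest losses of any gene. The 4.61 points lost by the collagens were 10.5% of the 43.9 points lost by all 4167 genes called lower. By number the collagens were 0.0720% of those genes, but points lost follow fetal abundance. In Emb135 the collagens held 5.09% of reads and all genes called lower held 56.6%. Because RPKM values are relative to the library total, this loss also touches the values of all other genes. With the collagens taken out of both totals, the median log2 ratio of the genes tested was -0.59 in place of -0.53.

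A ratio between 2 genes of 1 library does not depend on how the libraries are scaled, and its change between stages does not depend on gene length. COL1A1 stood above its partner chain COL1A2 at both stages, at a ratio of RPKM values of 1.68 in Emb135 (counting interval 1.67 to 1.69) and 1.33 in 30M (1.31 to 1.36). The ratio changed by -0.33 on the log2 scale (counting interval -0.36 to -0.31). The type I pair was therefore nearer to equality in the adult library than in the fetal one, and the RPKM ratio lay below 2 at both stages.

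COL3A1 mRNA stood below that of each type I gene in Emb135 and above that of each in 30M. With 41.3% of the summed RPKM of the 3 genes in 30M, COL3A1 still held less than the type I genes together. COL3A1 stood at 0.495 of COL1A1 in Emb135 (0.492 to 0.497) and at 1.23 of COL1A1 in 30M (1.22 to 1.25), a 2.49-fold change with a counting interval of 2.45 to 2.53. Against COL1A2, COL3A1 went from a ratio of 0.831 (0.826 to 0.836) to 1.65 (1.62 to 1.67), a 1.98-fold change (1.95 to 2.01). On the log2 scale these changes were 1.32 and 0.99, larger than the change within the type I pair. The order of the genes by RPKM was COL1A1, COL1A2, COL3A1 in fetal muscle and COL3A1, COL1A1, COL1A2 in adult muscle, and none of the counting intervals of neighbours in these orders overlapped. Variation between animals was not measured, so whether any of these changes exceeds it is not known.

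Of the summed RPKM of the 3 genes, COL1A1 held 47.8% in Emb135 and 33.5% in 30M. COL1A2 held 28.5% and 25.1%. COL3A1 held 23.7% and 41.3%. The part of COL3A1 was larger in the adult library and that of COL1A1 smaller, while that of COL1A2 differed least.

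**Figure D3:**
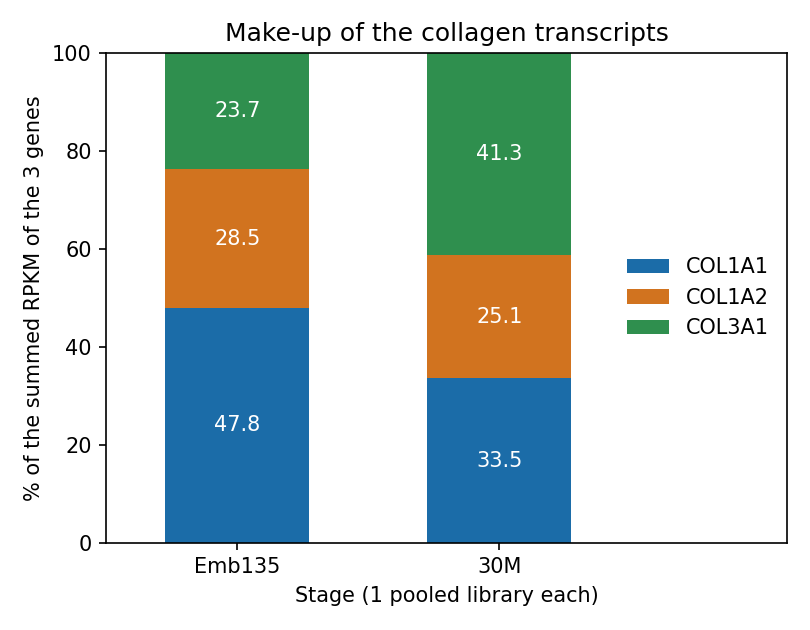
Percentage of the summed RPKM of the 3 collagen genes held by each gene (stacked bars, 1 pooled library per stage). The COL3A1 part is 23.7% in Emb135 and 41.3% in 30M, and the COL1A1 part 47.8% and 33.5%.

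The depth behind these values was large at both stages. With reads of 90 nt, the length found for genes with 1 read, COL1A1 was read at a mean depth of 8362 per base in Emb135 and 625.6 in 30M. COL1A2 was at 4977 and 468.9, and COL3A1 at 4137 and 771.5. The authors' coverage, taken here as the part of the model that reads touched, was 99.98% for COL1A2 in Emb135 and 99.91% in 30M. For COL1A1 it was 99.96% in 30M and 100.02% in Emb135, where 4736 covered bases are implied for a model of 4735. COL1A1 was the 1 gene over 100% among the 15522 detected in that library, so the column is not an exact percentage for it. COL3A1 was listed at 98.91% in both libraries, which leaves 49 nt without a read at each stage despite more than 5 times as many fetal reads. Whether these are the same bases is not shown by the tables. Among the 138 genes with at least 20000 reads in Emb135 the median coverage was 99.6%, and among the 104 such genes in 30M it was 99.8%.

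Scaling moved the size of the stage difference and not its direction or the order of the genes. Over all genes tested, the median log2 ratio was -0.53. The median ratio of genes with an RPKM of 1 or more at both stages gave a factor of 1.40 on 30M. With 30M raised by this factor, COL1A1 was at -3.43, COL1A2 at -3.10 and COL3A1 at -2.11. All 3 were then still called lower, against a background of 2714 of 12932 genes or 21.0%. The share of tested genes with a ratio as low was then 1.80% for COL1A1, 2.47% for COL1A2 and 6.33% for COL3A1.

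**Figure D4:**
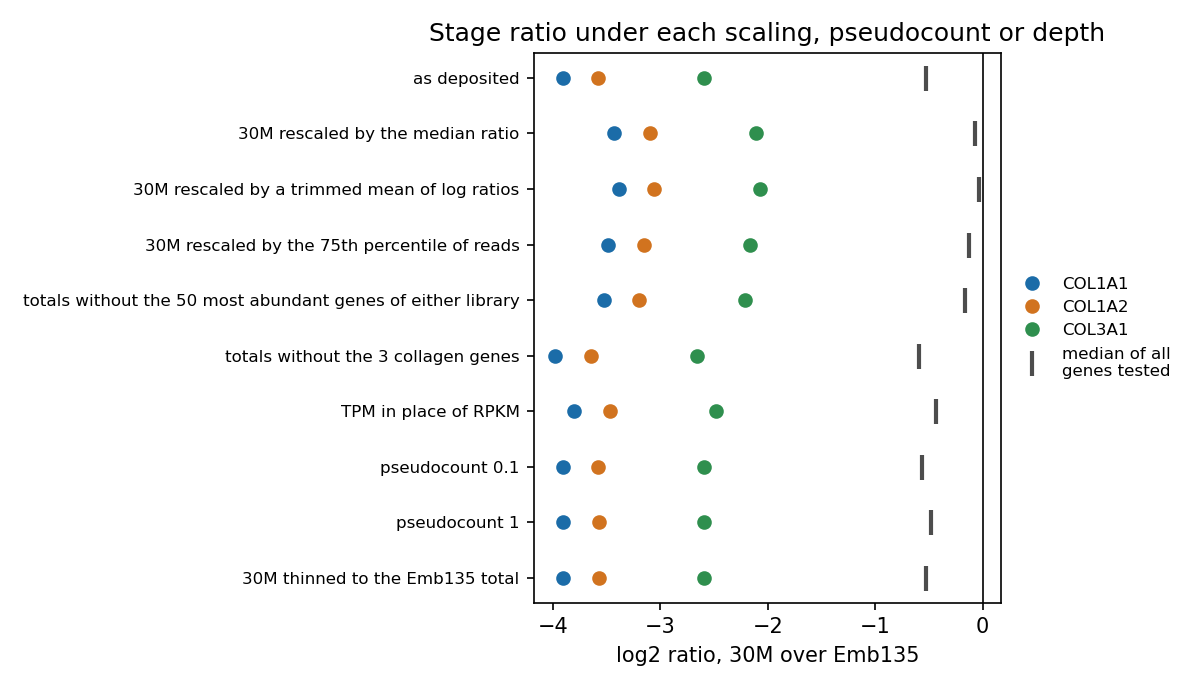
log2 ratio of 30M over Emb135 for COL1A1, COL1A2 and COL3A1 (coloured points) and the median of all genes tested (grey bars) under the deposited scale and 9 other settings. COL3A1 stays to the right of COL1A2 and COL1A1 under each setting, and all 3 genes stay well to the left of the median of all genes.

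The genes whose pair of values lay nearest to the collagens were sought by distance on the log2(RPKM + 0.5) scale of both stages from the mean of the 3. With 2 libraries, such a likeness rests on 2 points. The nearest was ENSBTAG00000046100, a short model of 514 nt. Its fetal RPKM was 2769 and its adult RPKM 259.3, a log2 ratio of -3.41, and its coverage was 43.0% and 40.9%. The next was ENSBTAG00000014534, of 1738 nt, with a fetal RPKM of 4085, an adult RPKM of 539.9 and a log2 ratio of -2.92. Their distances were 0.509 and 0.708, against 0.589 for COL1A1, 0.410 for COL1A2 and 0.546 for COL3A1 themselves. Each collagen gene is part of the mean, which draws the mean towards it, so the 2 kinds of distance are not on equal terms. The tables give no names for these identifiers.

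Other transcripts at the same place could add to these counts, since strand marking is not mentioned in the protocol. In the RefSeq gene table of assembly ARS-UCD2.0, no other gene overlapped COL1A1 or COL3A1. COL1A2 was overlapped by 1 long non-coding RNA gene, and its part in the reads of COL1A2 was not tested. Markers of fibroblasts, muscle fibres, fat cells, vessels and blood were not analysed here, nor were the other fibrillar collagens or the enzymes that hydroxylate, trim and crosslink procollagen, because no table used here pairs their symbols with the identifiers.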

How the data were processed

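RNA from pooled longissimus muscle was measured in 1 library per stage, after poly(A) selection and sequencing on an Illumina HiSeq instrument, per the labels' protocols. The deposited tables give 4 values per gene. Per the file headers these are counts of uniquely assigned reads, not normalized, the length of the gene model, the coverage signal and the RPKM. The counts add up to the header totals, and the deposited RPKM was recomputed from counts, lengths and totals to within a relative difference of 2.2e-14. No source used here names an aligner, counting tool, genome build or annotation release, so no coordinates are printed. Unique counting leaves reads shared with near-identical sequences out.

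The log2 ratio between stages was taken on log2(RPKM + 0.5). Intervals are exact 95% Clopper-Pearson intervals, for a ratio of reads conditional on their total. The change of a ratio between stages has a 95% interval from Poisson errors on the log scale. PCR copies and read pairs counted separately would make the intervals too narrow. Calls used a 2-fold threshold and a minimum RPKM of 1. The members and lists were chosen with earlier results of these data known. The 3 genes are named in every case, with the 2 identifiers nearest to their mean; the gene lists, markers and promoter motifs of the naming rule were not analysed here, since the RefSeq table (37063 genes) holds Ensembl identifiers for 0 of them. Data were simulated for this comparison over 16174 genes, with counting noise alone and the same profile for both libraries. Changes were placed only in genes with a mean RPKM of 2 or more. The rule for calls found 98 of 100 simulated 3-fold changes, all 100 simulated 8-fold changes and 4 false ones in 12108 unchanged genes. Variation between animals and library preparations was not simulated, so these numbers are no estimate of false calls in the real libraries. Alternatives were other scalings, pseudocounts of 0.1 and 1, other minimums and thresholds, thinning, and other lengths for the ratios between genes. Python 3.11.15, SciPy 1.17.1 and pandas 2.3.3 were used.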

Additional observations from a re-analysis of the deposited data

How the results depend on the processing

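The log2 ratios of COL1A1, COL1A2 and COL3A1 kept their direction under each of 9 alternatives, and all 3 genes were called lower under each of the 12 alternatives tried for the calls. They left the counting interval of the deposited scale with every rescaling. They were -3.43, -3.10 and -2.11 after scaling to the median ratio, -3.39, -3.06 and -2.07 by a trimmed mean, -3.49, -3.15 and -2.17 by the 75th percentile, -3.53, -3.20 and -2.21 when the 50 leading genes of either library were left out of the totals, -3.98, -3.64 and -2.66 when the collagens were, and -3.80, -3.47 and -2.48 with TPM. Pseudocounts of 0.1 and 1 and thinning 30M to the Emb135 total left them within it. Over all genes, 2581 were higher and 2714 lower with the median ratio, 2676 and 2607 with the trimmed mean, and 698 and 1319 at 4-fold. Of all calls, 71.5% were lower as deposited, and 51.3%, 49.3%, 54.0% and 55.8% under the first 4 rescalings in the order above. The lower share was 73.8% when the collagens were left out of the totals and 67.6% with TPM.

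As a share of summed RPKM, which gives short genes more weight, the collagens held 1.46% in Emb135 and 0.150% in 30M. With no length correction, the ratio of COL1A1 to COL1A2 was 1.72 in Emb135 and 1.37 in 30M, that of COL3A1 to COL1A1 0.471 and 1.17, and that of COL3A1 to COL1A2 0.810 and 1.60. Per covered base, COL3A1 stood at 0.5003 of COL1A1 and 0.840 of COL1A2 in Emb135, and the other 4 ratios stayed within their intervals. The positions of the 3 genes among all genes were recomputed as an addition made after seeing the data. No paired analysis was possible because there were no replicates, and none could be left out. Ratios per length of the RefSeq transcript were not run.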
